A study of Mus musculus with 2 samples.

Results

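The regions described here are the broad ones of a deposited list of H3K4me3 regions that stood higher in Mll-PTD than in WT blood progenitors. A region was included if it lay on chromosomes 1 to 19, was at least 3000 bases long and held at least 1 WT tag (a mapped read). The list has 41561 regions, of which 37853 are on the autosomes, and 917 of them met the rule. The mark was measured by chromatin immunoprecipitation and sequencing of bone marrow LSK cells of C57BL/6 mice, a fraction that lacks lineage markers, carries Sca1 and KIT and holds blood stem and progenitor cells. The WT library was made from wild-type mice, and the Mll-PTD library from mice carrying 1 knock-in allele of Mll with a partial tandem duplication. The cells were enriched on magnetic beads for CD117 (KIT) and then for Sca1, and the labels name no lineage depletion step, no age and no number of mice. With 1 library for each genotype there was no replicate, so the values describe these 2 libraries and no test between genotypes was made. Intervals are exact 95% intervals for counting error only, and tags of 1 library are not independent molecules.

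H3K4me3 is the trimethylation of lysine 4 on histone H3, and it is concentrated around the starts of active and poised genes. Most such marks form narrow peaks, and in many cell types an unusually wide H3K4me3 domain is found at genes that define the identity of the cell. Mll, now named Kmt2a, encodes a methyltransferase that places this mark and keeps Hox genes active in blood stem and progenitor cells, and its partial tandem duplication is found in acute myeloid leukaemia. Gene positions and sequence of the mm9 build were not used here, so the regions are given by mm9 position and were not assigned to genes.

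The regions were chosen by their length, their WT tags and the listing itself, so those values are a description. The caller had taken the WT tags as its background and kept what exceeded them at least 4-fold, which means that each region is higher in Mll-PTD by construction. Together the 917 regions covered 3.96 Mb, 12.7% of the listed autosomal length. They held 379807 Mll-PTD tags, 0.654% of that library of 58083118 tags (0.652% to 0.656%), and 40067 WT tags, 0.0919% of a library of 43579209 tags (0.0910% to 0.0928%). Mll-PTD tags are given below after scaling to the WT library size. The ratio of a region is its scaled Mll-PTD tags over its WT tags. The median ratio was 7.78 (quartiles 6.33 and 9.25), and the ratio of the summed tags was 7.11 (7.04 to 7.19).

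The WT tags in these regions were sparse, so meeting the rule does not make a region enriched in WT. An even spread of tags over the caller's genome size would give 21.8 per kb in either library at WT depth. The median WT density was 6.61 tags per kb (quartiles 5.54 and 8.24), 0.303 of that even level. The WT density was at or below the even level in 894 of the 917 regions (97.5%, 96.3% to 98.4%) and above it in 23. The 4-fold threshold holds WT down wherever Mll-PTD is modest, so part of this low level is set by the listing.

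Mll-PTD tags were also modest in most of these regions. The median density was 51.9 scaled tags per kb (quartiles 47.9 and 57.3), 2.38 times the even level, and 712 regions (77.6%) lay between 2 and 3 times that level. Only 40 regions exceeded 5 times the even level and 9 exceeded 10 times. The lowest density was 37.3 tags per kb, in the region on chromosome 17 from 22371581 to 22374598, which held 112.5 scaled Mll-PTD tags and 5 WT tags. The regions were thus mostly long stretches of low, similar Mll-PTD density over a lower WT density, with a small dense minority. The listing also bears on the Mll-PTD side, since the caller's tag threshold was 30 for peaks of 500 bases. The median region held 34.6 unscaled Mll-PTD tags per 500 bases. How much of the low, similar density that threshold sets was not tested.

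**Figure D1:**
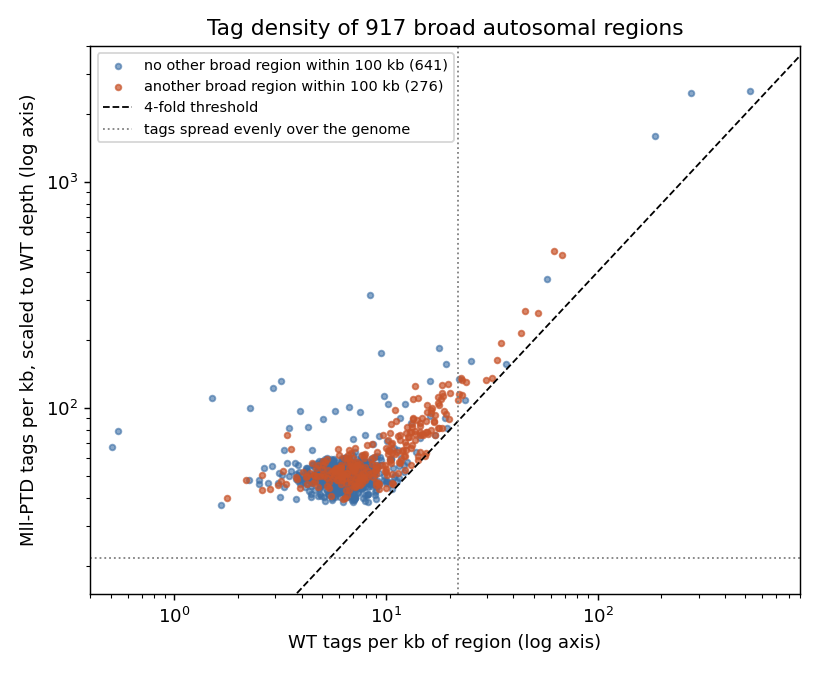
WT tags per kb (x, log axis) against scaled Mll-PTD tags per kb (y, log axis) for the 917 regions, coloured by whether another broad region lies within 100 kb, with the 4-fold threshold dashed and the even level of 21.8 tags per kb dotted. Most points form a compact cloud near 6.61 WT and 51.9 Mll-PTD tags per kb, a tail of mostly clustered regions runs up along the threshold, and 3 points stand apart at the top right.

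The regions resembled those of 1000 to under 3000 bases in density and differed from them in spread. Autosomal regions of 1000 to under 3000 bases with a WT tag, 5591 in number, had a median WT density of 6.73 and a median Mll-PTD density of 49.4 tags per kb, with a median ratio of 7.34. The 26105 under 1000 bases with a WT tag had a higher median WT density, 8.0 tags per kb. Their median Mll-PTD density was 49.6 and their median ratio 6.575. The same tag threshold applied to regions of every length, and its part in these similar Mll-PTD densities was not tested. The interquartile range of the log2 ratio was 0.55 in the broad regions, 0.82 in regions of 1000 to under 3000 bases and 1.13 in shorter ones. In the 1197 regions of 2000 to under 3000 bases it was 0.69. Within the broad regions it did not keep narrowing with length. It was 0.55 from 3000 bases, 0.48 from 4000, 0.60 from 5000 to under 7000 and 0.61 from 7000. Shorter regions hold fewer tags and so carry a wider counting error, and how much of the narrowing that accounts for was not tested. The 5 regions just above the length threshold, 3001 to 3008 bases long, had ratios from 4.41 to 20.4 (8 to 32 WT tags). The 5 just below it, 2995 to 2996 bases long, had ratios from 4.39 to 13.6 (11 to 51 WT tags), so these 2 sets overlap in ratio.

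A ratio of at least 8 was reached by 413 of the 917 broad regions (45.0%, 41.8% to 48.3%), and by 47.0% of all listed regions in the authors' deposited fold, which counts a region without WT tags as 0.5 tags. Over autosomal regions with a WT tag the share was 38.6%. A ratio of at least 16 was reached by 30 broad regions (3.27%), where the whole list had 23.9% and autosomal regions with a WT tag 11.8%. The listing and the rule used this contrast, so these shares are a description only. Of the 917 regions, 687 (74.9%) had a ratio between 5 and 10.

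Lengths ran from 3001 to 45585 bases with a median of 3847 (quartiles 3338 and 4741). The number of regions per 250-base class did not fall evenly. It dropped from 181 at 3000 to 3249 bases to 64 at 4000 to 4249 bases, then held at 57 in each of the next 3 classes and at 42 from 5000 bases, before dropping to 6 from 5750 to 5999 bases. Regions with no other broad region within 100 kb made up 44, 36 and 47 of the 57 in these 3 classes. Beyond 7000 bases the balance turned, with 27 of 33 regions lying within 100 kb of another.

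**Figure D2:**
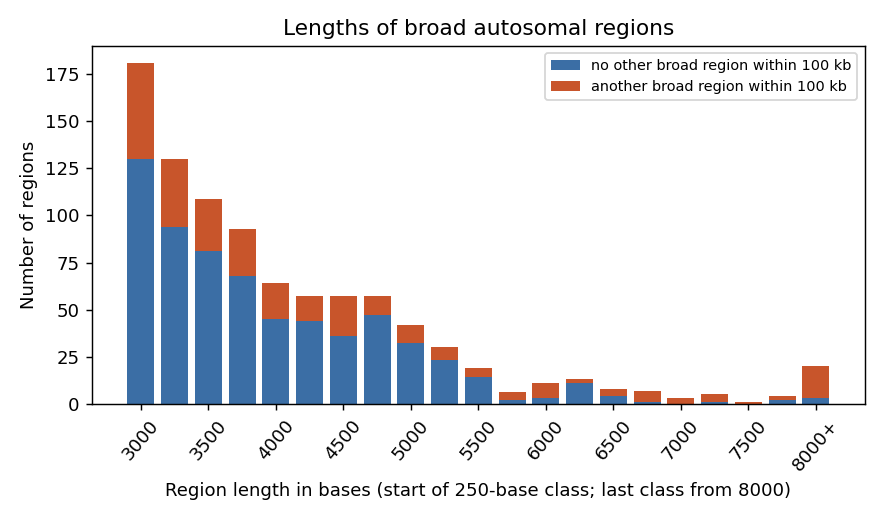
Number of regions (y) per 250-base class of length (x, last class from 8000 bases), stacked by whether another broad region lies within 100 kb. The counts level off at 57 in the 3 classes from 4250 bases, and 17 of the 20 regions from 8000 bases have a neighbour within 100 kb.

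Position was not used by the rule beyond the choice of autosomes, and it divided the regions. The nearest other broad region was less than 10 kb away for 122 regions (13.3%, 11.2% to 15.7%), 10 to 100 kb for 154, 100 kb to 1 Mb for 288, and 1 Mb or more for 353 (38.5%). The 276 regions with a neighbour within 100 kb are called clustered below, and the other 641 isolated. Clustered regions had a median ratio of 6.61 (quartiles 5.74 and 8.57) and isolated regions 8.03 (6.82 and 9.49). The ratio of summed tags was 6.29 (an interval from 6.20 up to 6.40) in clustered and 7.72 (7.61 to 7.82) in isolated regions. Most of the 2 distributions overlapped, as their quartiles show.

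Clustered and isolated regions differed more in WT density than in Mll-PTD density. In clustered regions WT stood at a median of 8.40 tags per kb (quartiles 6.21 and 13.2), against 6.39 (5.40 and 7.35) in isolated ones. The Mll-PTD medians were 56.2 and 51.0 tags per kb. Among regions of at most 60 scaled Mll-PTD tags per kb, the median ratio was 7.73 in 158 clustered and 8.0 in 584 isolated regions. Among denser ones it was 5.97 in 118 clustered and 8.56 in 57 isolated regions. The gap between clustered and isolated regions therefore lay mainly in the denser regions.

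The clonal fold moved with the clustering. This score of the caller rises when tags pile on the same positions. Its median was 0.74 in clustered and 0.65 in isolated regions. It reached 0.7 in 190 of 276 clustered regions (68.8%) and in 119 of 641 isolated ones (18.6%). The score also rose with Mll-PTD density, with a Spearman correlation of 0.369, and clustered regions were denser. Up to 60 scaled Mll-PTD tags per kb the clustered and isolated medians were 0.70 and 0.65. Above 60 they were 0.77 and 0.73, so the gap was smaller within either class. Over all 917 regions the median was 0.66, and 7 regions exceeded 1. The caller had removed peaks with a clonal fold above 2, so more strongly piled stretches could not appear. The part of piled tags in the lower ratio of clustered regions was not tested.

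**Figure D3:**
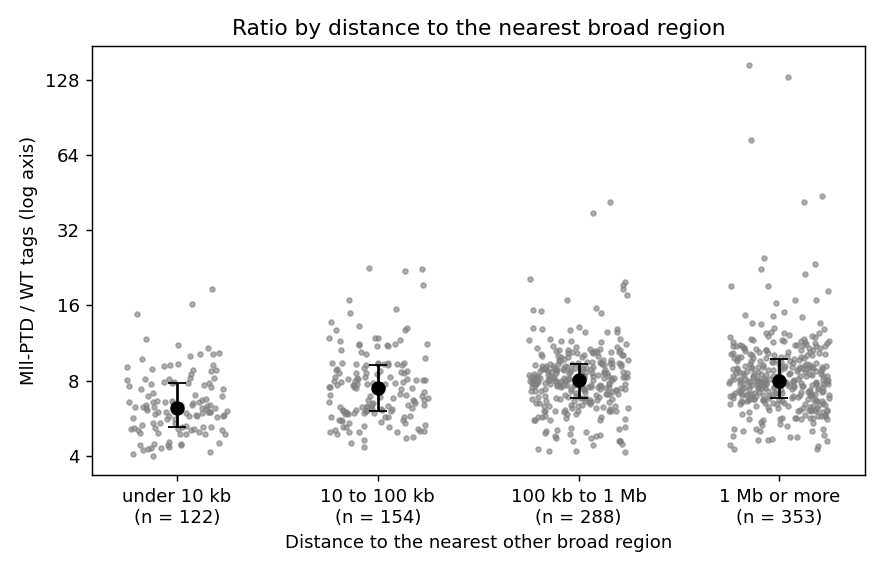
Ratio of scaled Mll-PTD to WT tags (y, log axis) of each region by distance to the nearest other broad region (x), grey points being regions and black marks the median and quartiles. The median rises from 6.24 under 10 kb to 7.47 at 10 to 100 kb and is 8.07 and 7.97 in the classes beyond.

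Length did not separate from clustering in a simple way. In isolated regions the median ratio was 7.94 from 3000 bases (373 regions), 8.26 from 4000 bases (172) and 8.05 from 5000 to under 7000 bases (90), in no steady order. In clustered regions it was 7.47 from 3000 bases (140 regions), 6.79 from 4000 (63), 6.00 from 5000 to under 7000 (46) and 5.77 from 7000 bases (27). The 6 isolated regions from 7000 bases had a median ratio of 9.41. Over all 917 regions the Spearman correlation of length with ratio was -0.052. These points share both libraries, and the correlation is a description.

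Counting error alone leaves a range around each ratio, and most regions were within it of the common value. The exact interval of the ratio held the median of 7.78 in 740 regions (80.7%), lay wholly below it in 116 and wholly above it in 61. Among clustered regions 77 of 276 intervals (27.9%) lay below, against 39 of 641 (6.08%) among isolated ones. The shares above it were 5.43% and 7.18%. Regions with an interval wholly below the median were therefore mostly clustered, 77 of the 116. Clustered regions also held more tags, a median of 34 WT tags against 25 in isolated ones, which narrows their intervals. How much of the difference in these shares comes from that was not tested.

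Chaining regions less than 100 kb apart gave 14 stretches of at least 4 broad regions, on 7 autosomes, with 141 regions in all (15.4%). In 12 of the 14 the median ratio was below the 7.78 of all broad regions. The stretch with most lay on chromosome 1 from 84953400 to 85328817, where 26 regions covered 41.3% of 375 kb. Their ratios ran from 4.01 to 7.41, with a median of 5.60, so none reached the median of all broad regions. They held 12446 scaled Mll-PTD tags and 2258 WT tags, a summed ratio of 5.51 (5.27 to 5.76). A second stretch of chromosome 1, from 87346902 to 87546633, held 17 regions over 51.7% of its length, with ratios from 4.50 to 7.81 and a summed ratio of 5.53 (5.25 to 5.83). WT stood at a median of 14.6 and 14.9 tags per kb in these stretches, more than the median of 6.61 over all broad regions.

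The third stretch, on chromosome 8 from 19695732 to 20002151, was the densest of the 14. Its 16 regions had median densities of 19.9 WT and 116 Mll-PTD tags per kb, and 7 of them stood above the even level in WT. Their ratios ran from 4.94 to 9.16, with a summed ratio of 6.56 (6.29 to 6.84). Within it, the region from 19920596 to 19929703 held 4523.5 scaled Mll-PTD tags and 569 WT tags, and that from 19757151 to 19761386 held 2006.3 and 287. On chromosome 17 from 13224839 to 13648999, 15 regions had a lower density, with medians of 8.98 WT and 52.9 Mll-PTD tags per kb, and a median clonal fold of 0.82. Their ratios spread from 4.35 to 11.0, and 5 of the 15 were above the median of all broad regions.

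The exceptions with a higher median ratio lay on chromosomes 10 and 7. On chromosome 10 from 117675258 to 117865636, 8 regions had ratios from 6.68 to 11.2 and a summed ratio of 8.63 (7.43 to 10.1). Their median clonal fold was 0.765, against 0.74 in all clustered regions. On chromosome 7 from 15746814 to 15841067, 6 regions had ratios from 6.60 to 16.2, a summed ratio of 8.67 (7.18 to 10.6) and a median clonal fold of 0.645, the level of isolated regions. Nearness to other broad regions thus did not go with a low ratio everywhere. The crowded window of chromosome 4 from 145 to 147 Mb held 29 broad regions with a median ratio of 6.10, and that of chromosome 14 from 42 to 45 Mb held 14 with 6.28.

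**Figure D4:**
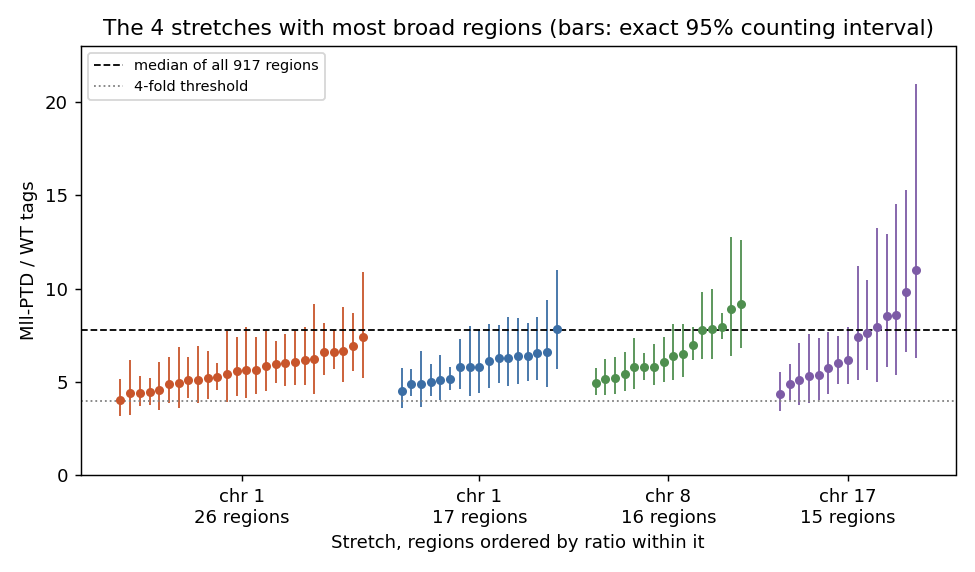
Ratio of scaled Mll-PTD to WT tags (y) with its exact 95% counting interval for each region of the 4 stretches with most broad regions (x, ordered by ratio within a stretch), against the median of all 917 regions (7.78, dashed) and the 4-fold threshold (dotted). All 26 regions of the first chromosome 1 stretch lie below the dashed line, and 5 of 15 on chromosome 17 lie above it.

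By autosome, chromosome 1 held the most broad regions, 116, or 4.38% of its 2649 listed regions (3.63% to 5.23%). Chromosome 14, with 2675 listed regions, held only 42 (1.57%, 1.13% to 2.12%). Chromosomes 8, 4 and 17 followed chromosome 1, with 3.23%, 3.12% and 3.01% of their listed regions being broad. The median ratio of a chromosome ran from 6.71 on chromosome 1 to 8.86 on chromosome 18, which had 18 regions. The low value of chromosome 1 went with its clusters, since its 58 isolated regions had a median ratio of 7.92. Over isolated regions the chromosome medians ran from 7.60 on chromosome 14 to 9.13 on chromosome 11.

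**Figure D5:**
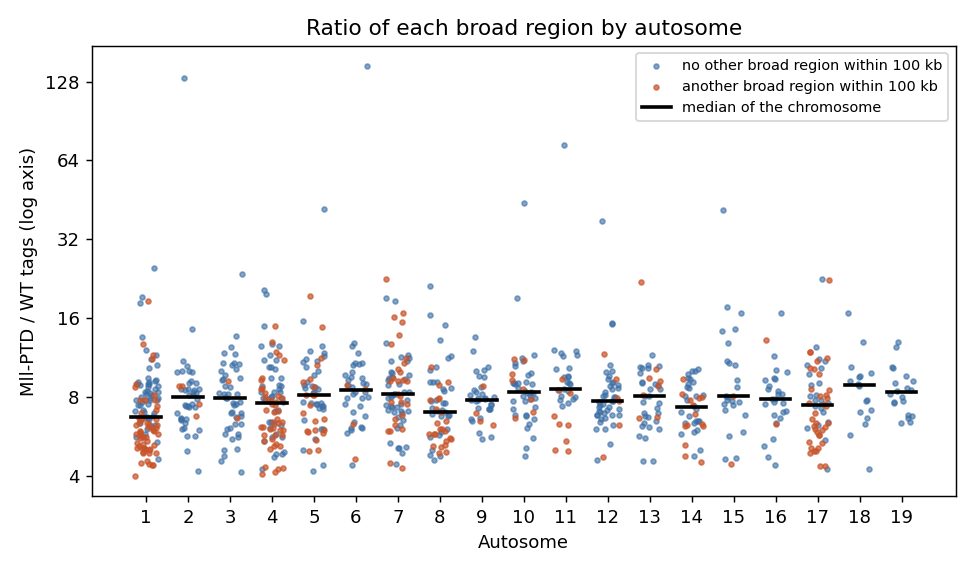
Ratio of scaled Mll-PTD to WT tags (y, log axis) of each broad region on the 19 autosomes (x), coloured by whether another lies within 100 kb, with the median of each chromosome as a bar. Chromosome 1 has the lowest median, 6.71, and on chromosomes 1, 4, 8 and 17 the clustered regions crowd the lower part of the range. Chromosome 7, with 28 clustered regions, differs from these, its median being 8.19 over all regions and 8.04 over the 45 isolated ones.

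The 10 longest regions illustrate the clustered kind, with 9 of them within 100 kb of another. First was chromosome 7 from 67002138 to 67047723, 45585 bases, with 12241 scaled Mll-PTD tags against 2059 WT tags, or 269 against 45.2 per kb. Its ratio was 5.95 (5.68 to 6.23). Its neighbours, from 66927673 to 66937512 and from 66938628 to 66942340, had ratios of 4.30 (3.81 to 4.87) and 4.47 (3.65 to 5.53). Farther towards the start of the chromosome, the regions from 66787636 to 66791127 and from 66806963 to 66811468 held only 9 and 8 WT tags and had ratios of 16.8 (8.65 to 37.2) and 22.6 (11.3 to 53.0). Neighbouring regions of this part of chromosome 7 thus differed in ratio beyond their counting error.

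The second longest, chromosome 7 from 71610406 to 71641295, was the exception among the 10, since it had no other broad region within 100 kb. Its 30889 bases held 3478.3 scaled Mll-PTD tags and 301 WT tags, a ratio of 11.6 (10.3 to 13.0). The other 8, on chromosomes 1, 8 and 17, were 10385 to 20206 bases long. Among them, chromosome 1 from 87502690 to 87522896 held 1746.7 scaled Mll-PTD and 340 WT tags, which gave a ratio of 5.14 (4.58 to 5.77). The region of chromosome 8 from 19973523 to 19986365 held 1703.2 and 295, which gave 5.77 (5.11 to 6.54). None of those 8 had a ratio above 6.62, which was that of chromosome 1 from 85171122 to 85187148.

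The 10 regions with the most WT tags per kb ran from 36.9 to 527 tags per kb, all above the even level, and their ratios lay between 4.25 and 9.01. At the head were 3 isolated regions, on chromosome 10 from 7229269 to 7235583 with 527 WT and 2521 scaled Mll-PTD tags per kb, chromosome 1 from 24618301 to 24623313 with 276 and 2489, and chromosome 2 from 22442550 to 22445799 with 187 and 1601. They were the only broad regions with more than 2 unscaled Mll-PTD tags per base on average, at 3.36, 3.32 and 2.13. The caller was set to consider at most 2 tags per base, and how that setting bears on these region means was not tested. Their ratios were 4.78 (4.61 to 4.96), 9.01 (8.53 to 9.52) and 8.56 (7.87 to 9.31). Lower in this order, the chromosome 8 stretch supplied 2 regions and chromosome 11 supplied a pair near its start, from 3039044 to 3043614 and from 3060156 to 3064182, with almost equal ratios of 5.01 (4.37 to 5.76) and 4.98 (4.25 to 5.88). The 4 broad regions with most Mll-PTD tags, which are these 3 and the longest, took 16.1% of the Mll-PTD tags and 18.4% of the WT tags of all 917. Without them the summed ratio was 7.32 (7.23 to 7.40).

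The 10 highest ratios among regions with at least 10 WT tags lay on 10 different chromosomes, and 8 of the 10 regions were isolated. Chromosome 11 from 106804791 to 106811408 was highest, its 736 scaled Mll-PTD tags over 10 WT tags giving 73.6 (39.9 to 154). Chromosome 10 from 84875821 to 84882417 followed with 658.8 against 15 tags, a ratio of 43.9 (26.5 to 78.8). Chromosome 5 from 3435686 to 3439775 held 499.7 and 12 tags, which gave 41.6 (23.7 to 81.0). Chromosome 15 from 58269244 to 58272396 held 414.9 and 10, which gave 41.5 (22.4 to 87.0). The intervals of these 4 overlap each other, and each lies above the median of all broad regions.

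These 10 high ratios came with dense Mll-PTD tags as well as few WT tags, but the regions were chosen by the ratio of these same tags. In the 10 regions the median Mll-PTD density was 98.6 scaled tags per kb, against 51.9 over all broad regions, and 3.23 WT tags per kb against 6.61. Over all broad regions the Spearman correlation of the ratio was 0.014 with Mll-PTD density and -0.863 with WT density, its denominator. The correlation with Mll-PTD density hides a rise and a fall. In classes of 91 or 92 regions ordered by that density, the median ratio was 6.70 up to 44.5 scaled tags per kb. It rose, though not at every step, to 8.75 at 55.8 to 59.5 tags per kb. In the denser classes it was 6.65 up to 78.2 tags per kb and 6.13 beyond. Of the 92 regions in each of these, 62 and 59 were clustered. Chromosome 12 from 4219106 to 4222217 showed the Mll-PTD side most. It held 979.1 scaled Mll-PTD tags, 315 per kb, and 26 WT tags, 8.36 per kb, which gave a ratio of 37.7 (25.6 to 57.9). Chromosome 13 from 6605161 to 6612054 showed the other side. Its 330.1 scaled Mll-PTD tags stood at an ordinary 47.9 per kb and its 15 WT tags at 2.18 per kb, a ratio of 22.0 (13.2 to 39.7).

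Below 10 WT tags there were 11 regions, whose ratios ran from 15.4 to 146. The 2 highest, chromosome 6 from 142345191 to 142348889 and chromosome 2 from 3881719 to 3885656, each held 2 WT tags against 292.6 and 264.1 scaled Mll-PTD tags. Their ratios of 146 (40.2 to 1212) and 132 (36.3 to 1095) are poorly fixed at that depth. In ratio they come closest to the 8 autosomal regions of at least 3000 bases that the rule left out because WT had no tag there. Those 8 held 168.8 to 482.4 scaled Mll-PTD tags, at a median density of 75.9 per kb, and the 2 regions with 2 WT tags had 79.1 and 67.1 per kb.

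At the other end, the 5 lowest ratios among regions with at least 10 WT tags, from 4.01 to 4.18, were limited by the 4-fold threshold. The lowest, chromosome 1 from 85229047 to 85234400, held 328.6 scaled Mll-PTD tags and 82 WT tags, a ratio of 4.01 (3.16 to 5.14). Chromosome 4 from 146714354 to 146721001 followed with 418.7 and 103, which gave 4.07 (3.29 to 5.07). On the same chromosome, 146723783 to 146731369 held 444.9 and 107, which gave 4.16 (3.38 to 5.16). All 3 lie inside 2 of the 14 stretches above. Not all of the 5 were clustered. The region at 116904560 to 116908140 of chromosome 3 (4.13) and that at 15120086 to 15123725 of chromosome 5 (4.18) were isolated. In 110 of the 917 regions (12.0%, 9.96% to 14.3%) the lower limit of the interval was under 4.

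The caller's score of a region had a median of 34 (quartiles 31 and 39) and was 30 to 39 in 712 regions. The lowest score was 30, a value equal to the caller's tag threshold. Set beside the mean number of unscaled Mll-PTD tags per 500 bases of the same region, the peak size of the caller, whose median was 34.6, the score was the lower of the 2 in 470 regions (51.3%). A tallest 500-base peak counted in the same tags could not fall below the mean of its region, so the score was not read here as the height of the tallest peak. It was highest on chromosome 1 from 24618301 to 24623313 at 948, followed by chromosome 10 from 7229269 to 7235583 at 808. The third, the longest region on chromosome 7, scored 159.

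Many broad regions were also alone among all listed regions, short ones included. No other listed region lay within 10 kb of 271 broad regions (29.6%, 26.6% to 32.6%), and the most that any had was 11. With no listed neighbour the median length was 4237 bases and the median ratio 8.36. With 1 listed neighbour the medians were 3592 bases (3591.5) and 8.0, with 2 they were 3531 bases (3530.5) and 7.78, with 3 to 5 they were 3919 bases and 6.62, and with 6 or more they were 4156 bases and 6.20. The median ratio thus fell with the number of listed neighbours, as it did with nearness to other broad regions, while length followed no such order.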

How the data were processed

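H3K4me3 libraries of 1 WT and 1 Mll-PTD sample were compared by the authors. Per the submitters' processing notes, the tools were HOMER 4.7 and Bowtie 0.12.7, on mm9. Per the file headers, the HOMER peak finder ran in histone style on Mll-PTD tags with WT tags as the input, joined peaks of 500 bases into regions, and required a false discovery rate of 0.001 (30 tags), 4-fold over WT and a Poisson p-value of 0.0001.

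Signal is deposited as Mll-PTD tags per 10000000, Mll-PTD tags scaled to WT depth, and unscaled WT tags (0.5 for none, taken here as 0). The authors' deposited ratio (fold) was used for the shares past 8 and 16. Their deposited p-value was not used as a test. The clonal fold and the caller's score are the authors' deposited scores. Region length, in bases, is as deposited.

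The scale was read from the region with most tags (0.750 scaled per Mll-PTD tag), and dividing by it gave whole tags within 0.1 in 100% of regions. Ratios carry exact Clopper-Pearson intervals from these tags. Counting was tested on simulated data with set ratios, expected WT counts raised to a floor and no 4-fold threshold. That test does not cover regions with very few WT tags or the effect of the listing. The members and every list and class were chosen with earlier results of these data known. Named are the 10 longest regions, the 10 highest and 5 lowest ratios with at least 10 WT tags, the 10 with most WT tags per kb, the 5 highest scores and the 5 on either side of 3000 bases. The stretches, the regions under 10 WT tags, the other regions named beside a result and the classes of distance, length and density were chosen after their values were seen. Alternatives were other thresholds of length, WT tags and fold, pseudocounts, and regions left out. The reference tables are of GRCm38.p6, so no gene or sequence was matched. Software was matplotlib 3.10.9, scipy 1.17.1, pandas 2.3.3, numpy 2.4.6 and Python 3.11.15.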

Additional observations from a re-analysis of the deposited data

How the results depend on the processing

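Of 72 alternative values of 8 results, 41 stayed within the main value's counting or order-statistic interval (for the number of regions, within 1.5 times). The 917 regions became 2114 from 2000 bases, 169 from 5000 bases, 413 at a deposited fold of 8 and 1612 with listed regions within 1 kb merged. The median ratio of 7.78 became 7.44 from 2000 bases, 7.37 from 5000, 9.43 at a fold of 8, 7.54 with a pseudocount of 1, 6.69 with 5 and 8.03 in isolated regions. The summed ratio of 7.11 became 6.50 from 5000 bases, 10.04 at a fold of 8, 7.32 without the 1% with most Mll-PTD tags per kb and 7.72 in isolated regions. The interquartile range of the log2 ratio, 0.55, became 0.62 from 2000 bases, 0.63 from 5000, 0.36 at a fold of 8, 0.45 with a pseudocount of 5 and 0.48 in isolated regions. The share within 10 kb of another, 13.3%, became 19.7% from 2000 bases, 17.8% from 5000, 3.39% at a fold of 8, 9.61% without chromosome 1, 2.62% within 1 kb and 30.1% within 100 kb. The median clonal fold of 0.66 became 0.69 from 5000 bases and 0.65 in isolated regions, and the median score of 34 became 36 from 5000. The median WT density of 6.61 tags per kb became 7.33 from 5000 bases, 5.44 at a fold of 8 and 6.39 in isolated regions. A fold of 8 and pseudocounts move ratios by construction. The alternatives of isolated regions and without chromosome 1 were chosen after seeing the data. No paired analysis was possible because there is a single library for each genotype. The median WT count of 26 tags limits what single regions can show.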
